A study of Mus musculus with 6 samples.

Results

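H3K4me3 and H3K27me3 were mapped in untreated neural stem and progenitor cells, and the comparison below sets the peaks of these marks beside each other, place by place and gene by gene. It uses the 2 libraries of cells kept with water, 1 per mark, out of 6 samples in the series. These libraries hold 13221 H3K4me3 peaks and 7643 H3K27me3 peaks, out of 52750 in the 4 peak lists of the series. The cells came from E13.5 mouse forebrain, were expanded in culture with epidermal and fibroblast growth factors to passage 2 to 3, and received water for 24 h. The other 4 samples are the 2 marks after 10 mM crotonate for 24 h, used here only to ask whether a peak was called again, and normal rabbit IgG after water and after crotonate, not analysed here. The labels give neither the strain, genotype and sex of the embryos nor whether embryos were pooled. CUT&Tag was used, an assay in which an antibody bound to the mark recruits a transposase that tags the neighbouring DNA.

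H3K4me3 is histone H3 trimethylated at lysine 4, which is written by the SET1 and MLL complexes and marks promoters that are active or ready for use, most of them rich in CpG dinucleotides. H3K27me3 is the trimethylation of lysine 27 of the same histone by Polycomb repressive complex 2, and it covers developmental regulators that a cell keeps silent. Promoters that carry both marks are called bivalent, a state first described in embryonic stem cells for regulators of later lineages. Neural progenitors divide under growth factors, express factors such as Sox2 and Nes, and later give rise to neurons, astrocytes and oligodendrocytes.

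With 1 library per mark there is no replicate, so no p-value is given and every interval covers counting error only. A gene had a mark when a peak lay within 2 kb of its start. The marks were mapped in separate aliquots of many cells, so marks on the same DNA molecule and marks in different cells of the culture cannot be told apart. By this rule 54.5% of 21883 protein-coding genes had H3K4me3 at the start, alone or together with H3K27me3, and 8.75% had H3K27me3, alone or together with H3K4me3.

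The 250 bases before the most upstream start that RefSeq lists are shown for 6 genes, as examples from the 4 states (GRCm38.p6, 5′ to 3′ on the strand of the gene, CpG dinucleotides in capitals). Sox2 stands for H3K4me3 only, Hoxa9 and Neurod1 for H3K27me3 only, Neurog2 and Eomes for both marks, and Gfap for neither. Neurod1 was added after its values were seen, to show a CpG-rich promoter with H3K27me3 only.
Sox2 (chr3:34649745-34649994, plus strand): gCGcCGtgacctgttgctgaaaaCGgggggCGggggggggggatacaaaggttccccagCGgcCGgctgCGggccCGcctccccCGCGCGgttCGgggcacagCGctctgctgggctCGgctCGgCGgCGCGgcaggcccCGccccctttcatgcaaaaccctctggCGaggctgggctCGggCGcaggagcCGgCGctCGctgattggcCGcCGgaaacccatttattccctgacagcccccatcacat
Hoxa9 (chr6:52227371-52227620, minus strand): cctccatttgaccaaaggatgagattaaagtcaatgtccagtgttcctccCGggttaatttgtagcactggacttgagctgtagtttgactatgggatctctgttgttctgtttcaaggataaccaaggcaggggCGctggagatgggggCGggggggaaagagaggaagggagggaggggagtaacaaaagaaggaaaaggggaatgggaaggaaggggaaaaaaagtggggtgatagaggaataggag
Neurod1 (chr2:79456637-79456886, minus strand): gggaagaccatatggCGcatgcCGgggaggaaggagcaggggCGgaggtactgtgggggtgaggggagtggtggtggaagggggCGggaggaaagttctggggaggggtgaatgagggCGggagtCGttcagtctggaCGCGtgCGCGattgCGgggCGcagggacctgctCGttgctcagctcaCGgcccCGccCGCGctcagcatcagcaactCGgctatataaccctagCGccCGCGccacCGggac
Neurog2 (chr3:127632886-127633135, plus strand): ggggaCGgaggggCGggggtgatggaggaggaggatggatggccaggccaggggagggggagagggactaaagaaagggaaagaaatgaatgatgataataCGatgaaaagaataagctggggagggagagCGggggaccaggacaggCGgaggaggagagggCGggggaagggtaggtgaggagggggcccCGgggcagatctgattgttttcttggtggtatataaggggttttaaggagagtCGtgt
Eomes (chr9:118477939-118478188, plus strand): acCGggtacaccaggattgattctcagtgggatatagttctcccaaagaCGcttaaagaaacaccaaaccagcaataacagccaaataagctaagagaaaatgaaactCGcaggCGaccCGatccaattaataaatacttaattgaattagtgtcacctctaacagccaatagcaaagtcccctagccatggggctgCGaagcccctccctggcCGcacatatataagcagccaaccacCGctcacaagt
Gfap (chr11:102897201-102897450, minus strand): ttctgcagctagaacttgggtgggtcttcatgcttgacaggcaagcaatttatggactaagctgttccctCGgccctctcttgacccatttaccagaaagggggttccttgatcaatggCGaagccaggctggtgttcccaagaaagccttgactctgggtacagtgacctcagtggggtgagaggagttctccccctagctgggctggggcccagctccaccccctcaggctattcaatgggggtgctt
Sox2 has 27 CpG in this stretch and Neurod1 has 22, while Hoxa9 has 3 and Gfap has 2. Neurog2 and Eomes have 8 each. The annotated span of Neurog2 begins 0.403 kb upstream of its listed start, so its printed stretch lies inside that span. CpG-rich and CpG-poor promoters therefore both occur among these 2 genes with H3K27me3 only, and the counts over all promoters are given further on.

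The marks differed in scale. H3K4me3 peaks had a median length of 1508 bp, with quartiles of 973 and 2088 bp, and covered 21.4 Mb. H3K27me3 peaks covered nearly the same length, 20.7 Mb, but their median was 1087 bp and their quartiles 585 and 2720 bp. Long domains made the difference. Of the H3K27me3 peaks, 398 (5.21%) were at least 10 kb long and held 36.2% of the length covered by the mark, against 7 H3K4me3 peaks with 0.475% of its length. The longest H3K27me3 peak spanned 170 kb and the longest H3K4me3 peak 23.8 kb. Fold enrichment is the authors' value for the summit of a peak over local background. It describes peaks and is meant for comparison only within the list of a mark. Its median was 14.3 for H3K4me3, with a maximum of 63.5, and 5.23 for H3K27me3, with a maximum of 125.

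**Figure D1:**
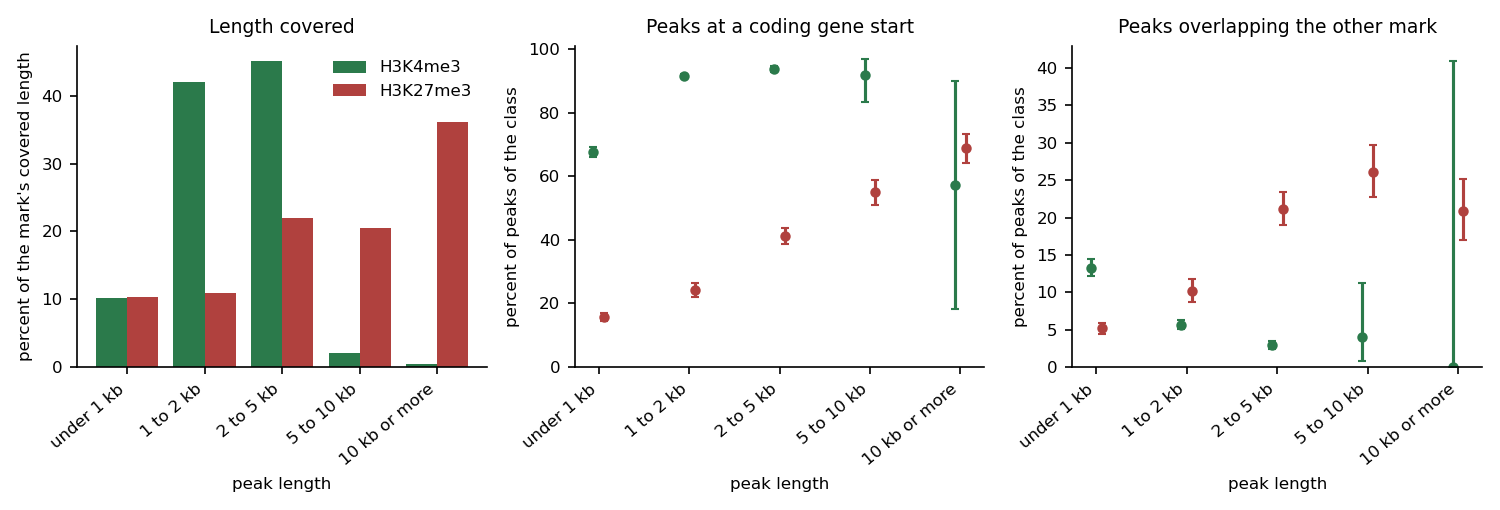
Peaks of each mark in 5 classes of peak length. The left panel gives the percent of the mark's covered length in each class, the middle panel the percent of peaks of a class within 2 kb of a protein-coding gene start, and the right panel the percent that overlap a peak of the other mark by at least 1 bp. Error bars are exact 95% binomial intervals. H3K27me3 peaks reach a start more often the longer they are, from 15.8% to 68.8%, while short H3K4me3 peaks overlap H3K27me3 most often.

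Gene starts took up most of the H3K4me3 peaks and a minority of the H3K27me3 peaks. Of the H3K4me3 peaks, 11357 (85.9%, 95% interval 85.3 to 86.5) lay within 2 kb of a protein-coding start, 1019 (7.71%) elsewhere inside such a gene, 469 (3.55%) at another annotated gene and 376 (2.84%) outside annotated genes. Of the H3K27me3 peaks, 2161 (28.3%, 27.3 to 29.3) lay at a protein-coding start, 2221 (29.1%) inside such a gene, 899 (11.8%) at another annotated gene and 2362 (30.9%) outside. The H3K27me3 peaks at starts were longer as a group, although 565 of them were under 1 kb. These 28.3% of the peaks held 52.5% of the length covered by the mark. A peak counted as at a start if any part came within 2 kb, which longer peaks reach more easily. H3K27me3 peaks outside genes had a median length of 796 bp and a fold of 4.84, less than the 2465 bp and 8.07 at starts. Most of both kinds were called again in the crotonate library of the same mark, 90.4% of the H3K27me3 peaks outside genes and 93.5% of those at starts. For H3K4me3 at starts the share was 99.8%. An overlap of at least 1 bp counted as called again, and the crotonate lists together held more peaks than the water lists.

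Of the H3K4me3 peaks, 910 (6.88%, 6.46 to 7.33) overlapped an H3K27me3 peak by at least 1 bp, 723 with at least 50% of their length and 505 with all of it. For scale, an H3K27me3 peak lay within 2 kb of 7.67% of the gene starts and ends used. Those windows are wider than most H3K4me3 peaks, so the shares are not measured alike. Seen from the other side, 897 H3K27me3 peaks (11.7%) overlapped an H3K4me3 peak. The shared stretches summed to 764 kb, which is 3.57% of the length with H3K4me3 and 3.70% of that with H3K27me3. H3K4me3 peaks on an H3K27me3 peak ranked low in their list for length and fold, at medians of 991 bp and 7.95 against 1545 bp and 14.7 for the rest. H3K27me3 peaks on an H3K4me3 peak had medians of 2737 bp and 8.64 against 989 bp and 5.09 for the rest. These values were near those of all H3K27me3 peaks at protein-coding starts, 2465 bp and 8.07. The overlaps sat mainly at starts, with 81.1% of the overlapping H3K4me3 peaks and 83.3% of the overlapping H3K27me3 peaks within 2 kb of one. How often the marks meet depended on the threshold of the peak calls, and 257 H3K4me3 peaks overlapped H3K27me3 when both lists were limited to a −log10 q of at least 10.

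Gene by gene, H3K4me3 alone was the commonest state. Of the 21883 genes, 11074 (50.6%) had H3K4me3 only, 1065 (4.87%) H3K27me3 only, 813 (3.72%) both marks at the same start and 8894 (40.6%) neither. A further 37 genes (0.169%) had the marks at different starts. These percentages are the background for the gene lists below. The states describe the 2 kb around starts only. An H3K27me3 peak lay elsewhere inside 186 of the genes with H3K4me3 only, and an H3K4me3 peak inside 58 of those with H3K27me3 only. The marks of genes with 1 mark were stronger than those of genes with both. H3K4me3 had a median length of 1.72 kb and a fold of 16.6 at genes with H3K4me3 only, and 1.11 kb and 9.08 at genes with both marks. H3K27me3 had a median length of 4.16 kb and a fold of 14.0 at genes with H3K27me3 only, and 2.80 kb and 8.88 at genes with both. Domains of at least 10 kb covered 263 of the genes with H3K27me3 only (24.7%) and 76 of those with both marks (9.35%). Of the genes with both marks, 721 had peaks that overlapped each other, and at a −log10 q of at least 10 the count of genes with both marks was 245. With the H3K4me3 list limited to its 7643 strongest peaks, as many as in the other list, genes with H3K27me3 only numbered 1725 and genes with both marks 162.

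**Figure D2:**
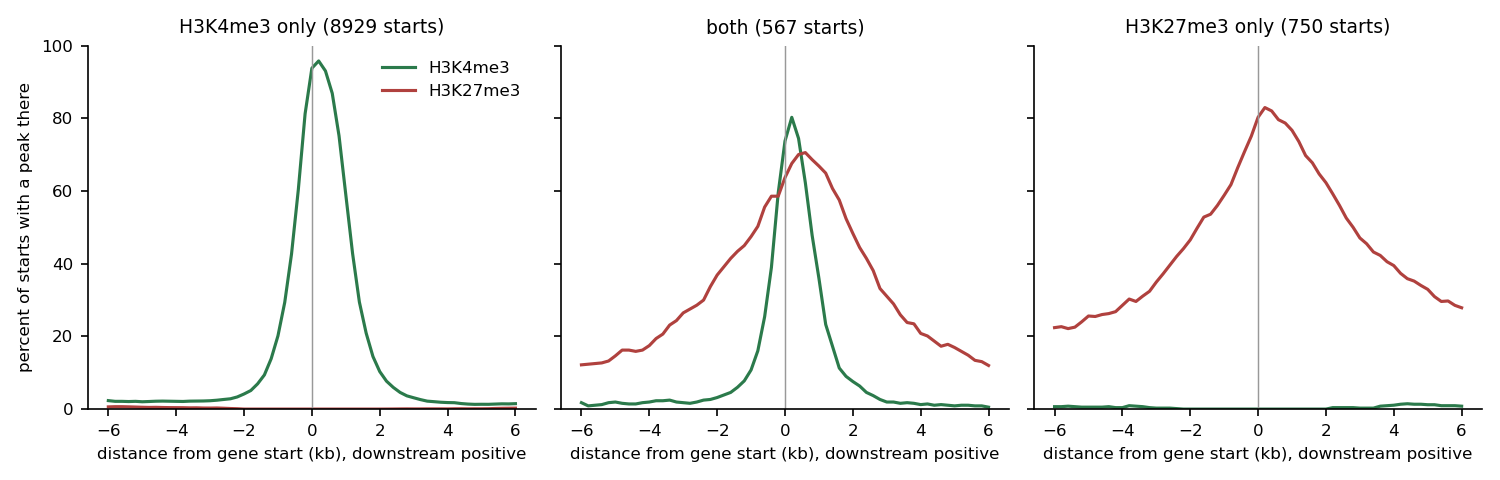
Percent of gene starts with a peak of each mark at each distance from the start, in kb with downstream positive, for genes with H3K4me3 only (left), both marks (middle) and H3K27me3 only (right). Only genes with a listed RefSeq start are drawn, each at its most upstream one. The states were set by the 2 kb around that start alone. H3K4me3 is narrow in both panels where it occurs, and H3K27me3 still covers over 20% of the starts with H3K27me3 only at 6 kb upstream.

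The marks were arranged differently around starts. Each gene with a listed start was taken at its most upstream one, and peaks within 2 kb of that start alone set its state. Counts therefore differ from those over all listed starts, with 567 against 596 genes with both marks. What follows describes position within and beyond that window. At genes with H3K4me3 only, an H3K4me3 peak covered the start base itself in 93.8% of 8929 genes. At 2 kb downstream the share was 10.3%, and at 2 kb upstream 4.16%. At genes with H3K27me3 only, an H3K27me3 peak covered the start base in 80.3% of 750 genes, 62.3% at 2 kb downstream and 39.5% at 4 kb downstream. Genes with both marks differed in which mark covered the start. The start base was covered by both marks in 259 of 567 genes (45.7%), by H3K4me3 alone in 28.0%, by H3K27me3 alone in 18% and by neither in 8.29%. Some starts with both marks lie next to the start of another gene. With states set over all listed starts, another protein-coding start lay within 5 kb for 10.7% of the genes with both marks. The shares were 24.5% with H3K4me3 only, 8.45% with H3K27me3 only and 6.20% with neither, against 15.9% of all genes with a listed start.

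The genes that define the labelled cell type had H3K4me3. Of 40 neural stem and progenitor genes, 32 had H3K4me3 only, 6 both marks and none H3K27me3 only. Their H3K4me3 peaks were wide, with a median of 3.84 kb, against 1.72 kb at all genes with H3K4me3 only. At Sox2, the transcription factor that maintains neural stem cells, the peak was 3.98 kb long with a fold of 34.9 (chr3:34647977-34651960), and a second peak of 6.89 kb followed 3′ of it. Nes, the intermediate filament nestin, was covered for 4.70 kb at a fold of 24.3 (chr3:87970279-87974975). Egfr, the receptor of a growth factor in the medium, had 4.04 kb and a fold of 35.0. Nr2e1, a nuclear receptor needed for stem cell renewal, had 6.38 kb and a fold of 31.3.

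The progenitor genes with both marks were Lhx2, Fgfr3, Prom1, Bmi1, Id4 and Otx2, the last pair named after their values were seen. At 5 of them H3K27me3 was shorter than H3K4me3, and Otx2, a homeobox factor, had H3K4me3 of 0.406 kb in an H3K27me3 domain of 25.5 kb. Lhx2, a selector of cortical fate, had H3K4me3 over 5.12 kb with a fold of 16.3 and H3K27me3 over 2.37 kb with a fold of 8.12. Fgfr3, a fibroblast growth factor receptor, had 2.52 kb with a fold of 20.9 and 1.85 kb with a fold of 4.92. Prom1, the surface protein CD133, had 1.66 kb with a fold of 27.1 and 1.64 kb with a fold of 4.05. Bmi1, a Polycomb protein, had 1.80 kb with a fold of 14.7 and 1.09 kb with a fold of 7.81.

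Pax6 and Msi1 were the 2 progenitor genes with neither mark within 2 kb of a listed start, and both had an H3K4me3 peak further inside the gene. Pax6, the dorsal forebrain factor, has its most upstream listed start at chr2:105668896, and the H3K4me3 peak of 3.24 kb with a fold of 25.1 began 6.07 kb downstream of it (chr2:105674962-105678204). Msi1, the RNA-binding protein musashi, had 3.11 kb of H3K4me3 at a fold of 21.9. The listed starts do not hold every promoter. Of the 8894 genes with neither mark, 419 had an H3K4me3 peak and 236 an H3K27me3 peak anywhere inside the gene, and whether those peaks lie at promoters was not tested.

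**Figure D3:**
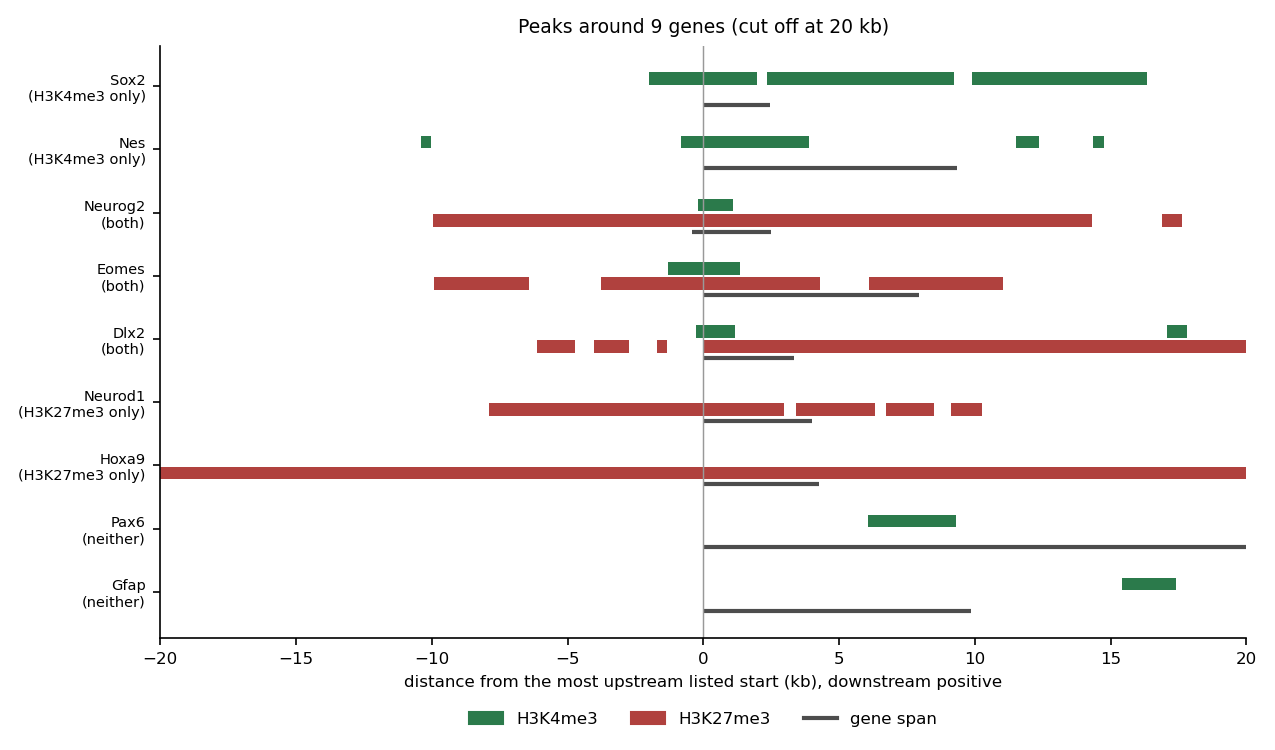
H3K4me3 peaks (green), H3K27me3 peaks (red) and gene spans (grey) around 9 genes, in kb from the most upstream listed start, downstream positive, cut off at 20 kb. Sox2 and Nes have H3K4me3 only. Neurog2, Eomes and Dlx2 have an H3K4me3 peak at the start that is shorter than the H3K27me3 domain it overlaps. Neurod1 and Hoxa9 have H3K27me3 only, and Pax6 has H3K4me3 6.07 kb downstream of its most upstream listed start.

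Genes of general cell function had almost only H3K4me3. Of 30 glycolysis and housekeeping genes, 29 had H3K4me3 only and Ywhaz, with a peak of 3.31 kb and a fold of 43.0 inside the gene, had neither at its listed starts. Gapdh had H3K4me3 over 3.66 kb at a fold of 27.1 and Actb one of 3.36 kb with a fold of 19.4. Of 84 genes named as ribosomal proteins, 80 had H3K4me3 only, and the 4 with neither mark were Rpl10l, Rpl32l, Rpl39l and Rpl3l, all listed as ribosomal protein-like genes. Of 49 NADH dehydrogenase subunit genes, 46 had H3K4me3 only and none had H3K27me3. The cell cycle list had H3K4me3 at all 33 members, among them Plk1, a mitotic kinase, with 3.49 kb and a fold of 41.5, and Pcna, the replication clamp, with 2.72 kb and a fold of 38.9. Mycn and Cdk6, drivers of progenitor division, were the 2 of the 33 that also had H3K27me3. Cdk6 had an H3K27me3 peak of 5.47 kb with a fold of 30.5 beside H3K4me3 of 3.15 kb with a fold of 9.43.

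Inhibitors of the cell cycle had more varied marks. Of 7 cyclin-dependent kinase inhibitor genes, 5 had H3K4me3 only, such as Cdkn1a with 2.41 kb and a fold of 25.2. Cdkn1c, the maternally expressed p57, had H3K27me3 only, over 3.31 kb with a fold of 7.50. Cdkn2a, which encodes p16 and p19Arf and is a known Polycomb target in stem cells, had both marks, with H3K4me3 over 2.06 kb and H3K27me3 over 17.0 kb.

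The enzymes that write, read and remove both marks were themselves marked by H3K4me3. Of 45 Polycomb and trithorax genes, 38 had H3K4me3 only, 5 both marks and none H3K27me3 only. Ezh2, the H3K27 methyltransferase, had H3K4me3 over 2.48 kb with a fold of 13.9. Kmt2b, an H3K4 methyltransferase, had 2.54 kb with a fold of 30.2. All 5 with both marks encode parts of Polycomb repressive complex 1, namely Bmi1, Pcgf1, Pcgf2, Pcgf5 and Cbx2. Pcgf1 had H3K4me3 over 1.71 kb with a fold of 24.8 and lay at the edge of an H3K27me3 domain of 18.6 kb with a fold of 58.3, which also reached the start of Tlx2, a homeobox gene with H3K27me3 only. Ash2l and Phf1 had neither mark at a listed start and an H3K4me3 peak inside or beside the gene, of 2.10 kb and 2.14 kb.

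Factors that drive neurogenesis were mostly under H3K27me3. Of 18 proneural and intermediate progenitor genes, 9 had H3K27me3 only, 4 both marks, 2 H3K4me3 only and 3 neither, against 4.87% and 3.72% of all genes with H3K27me3 only and with both. Their H3K27me3 domains had a median of 14.5 kb. Neurod2, a factor of differentiating excitatory neurons, lay in 27.5 kb of H3K27me3 with a fold of 69.5, Neurog1 in 17.8 kb with a fold of 67.1, Atoh1, the factor of cerebellar granule cells, in 11.4 kb with a fold of 62.4, and Olig3 in 17.4 kb with a fold of 50.1.

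At the proneural genes with both marks the lengths of the marks differed from gene to gene. Neurog2, the proneural factor of the cortex, had a short H3K4me3 peak of 1.29 kb with a fold of 7.13 (chr3:127632941-127634228) inside an H3K27me3 domain of 24.3 kb with a fold of 50.5 (chr3:127623196-127647461). Bhlhe22, a factor of later cortical neurons, was similar, with 1.1 kb and a fold of 5.66 inside 14.5 kb with a fold of 45.0. Eomes, the factor of intermediate progenitors, had H3K4me3 of 2.67 kb with a fold of 4.34 and H3K27me3 of 8.07 kb with a fold of 14.6. Insm1, which promotes the birth of intermediate progenitors, had the longer peak for the other mark, with H3K4me3 over 2.84 kb and a fold of 17.5 and H3K27me3 over 1.07 kb and a fold of 6.25.

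Factors of the ventral forebrain and of interneurons had H3K27me3 in 22 of 27 genes, 13 alone and 9 with H3K4me3. The 9 became 6 at a −log10 q of at least 10, and with lists of equal length, as above, they became 3 and the 13 became 19. Dlx5 and Dlx6, which specify interneurons, shared a domain of 45.8 kb with a fold of 71.4. Lhx6 lay in 27.2 kb with a fold of 72.7 and Nkx2-1, the factor of the medial ganglionic eminence, in 24.8 kb with a fold of 66.4. Dlx1 and Dlx2 had the same H3K27me3 domain of 22.5 kb with a fold of 51.4, and each had an H3K4me3 peak of its own, of 0.735 kb with a fold of 7.35 at Dlx1 and 1.45 kb with a fold of 10.4 at Dlx2. Gad1, which makes the transmitter GABA, had H3K4me3 of 2.54 kb and H3K27me3 of 11.4 kb. Zic1, Meis2 and Ebf1 were among the genes with H3K4me3 only. Gsx1, Nr2f1, Sp8 and Sp9 had both, with H3K4me3 of 3.03 to 4.27 kb.

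Factors of the cortical layers spread over the 4 states, with 7 of 18 under H3K4me3 only, 4 under H3K27me3 only, 5 under both and 2 under neither. Fezf2, the factor of deep-layer projection neurons, lay in H3K27me3 of 31.8 kb with a fold of 60.0, and Tbr1 in 26.4 kb. Rorb and Cux1, factors of upper layers, had H3K4me3 only, of 4.24 and 4.08 kb. Pou3f1 had both, with H3K4me3 of 1.05 kb and H3K27me3 of 12.6 kb and a fold of 72.6, and Bcl11a had both with H3K4me3 the longer, 6.26 kb against 2.07 kb. Sox5 and Ldb2 had neither mark at a listed start, and Sox5 had 4 H3K4me3 peaks inside the gene.

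Neuronal effector genes, which encode channels, receptors, filaments and transporters, were divided as well. Of 40, 18 had H3K4me3 only, 7 H3K27me3 only, 6 both and 9 neither. Map2, a dendritic microtubule protein, had H3K4me3 of 2.04 kb with a fold of 35.1. Chat, which makes acetylcholine, lay in H3K27me3 of 11.9 kb with a fold of 71.3, and Nefh, a neurofilament, in 11.6 kb with a fold of 53.5. Slc17a6, a vesicular glutamate transporter, had H3K27me3 only, of 6.58 kb, and its relative Slc17a7 had 11.3 kb of H3K27me3 with an H3K4me3 peak of 0.269 kb. Dcx, Camk2a, Gria1 and Pvalb had neither at the start, and Dcx had 2 short H3K27me3 peaks, of 589 and 385 bp, inside the gene. Of the 9 genes with neither mark, 3 had an H3K27me3 peak inside and 1 an H3K4me3 peak.

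Of 20 astrocyte and oligodendrocyte genes, 7 had H3K4me3 only, 2 both, none H3K27me3 only and 11 neither. H3K27me3, alone or with H3K4me3, was thus at 2 of the 20, near the 8.75% of all genes that had it. Olig2 and Olig1, factors of the oligodendrocyte lineage, had H3K4me3 of 6.24 kb with a fold of 16.0 and 3.34 kb with a fold of 15.4. Gfap, the astrocyte filament, Aqp4, Aldoc and Mag had no peak of either mark. Pdgfra, the receptor of oligodendrocyte precursors, had both, with H3K27me3 of 7.72 kb with a fold of 18.8 and weak H3K4me3 of 1.57 kb with a fold of 4.08.

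Hox genes and factors of lineages outside the nervous system lay mostly under H3K27me3. All 39 Hox genes had H3K27me3 only, and 4 domains of 170, 132, 117 and 111 kb, over the Hoxc, Hoxa, Hoxd and Hoxb clusters, were the 4 longest peaks of the list. Of 56 non-neural lineage factors, 39 had H3K27me3 only, 7 both marks, 1 H3K4me3 only and 9 neither, and the median domain was 19.1 kb. Gata4, a heart and endoderm factor, lay in 48.3 kb with a fold of 122 (chr14:63227207-63275520), Nkx2-5, a heart factor, in 30.3 kb with a fold of 83.3, and Pax2, a kidney factor, in 34.8 kb with a fold of 72.4. Eya1 was the 1 with H3K4me3 only. Where H3K4me3 joined H3K27me3 in this list it was short, as at T, the mesoderm factor brachyury, with 0.401 kb against 8.11 kb, and at Runx1, a blood factor, with 0.661 kb against 10.4 kb. Over the 8 members with any H3K4me3 its median length was 0.601 kb.

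Families of developmental transcription factors differed in their states. Of 74 paired and LIM homeobox genes and their relatives, 47 had H3K27me3 only, 20 both, 5 H3K4me3 only and 2 neither, and 51 of them lay in a domain of at least 10 kb. Of 44 forkhead genes, 16 had H3K27me3 only, 7 both, 13 H3K4me3 only and 7 neither, and Foxh1 had the marks at different starts. Of 13 T-box genes, 8 had H3K27me3 only and Tbx2 both. The Sox family had H3K4me3 only at 12 of 19 genes, with a median length of 4.40 kb, among them Sox2, Sox11 with 6.43 kb and Sox8 with 4.74 kb, while Sox17, an endoderm factor, and Sox18 and Sox14 had H3K27me3 only.

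**Figure D4:**
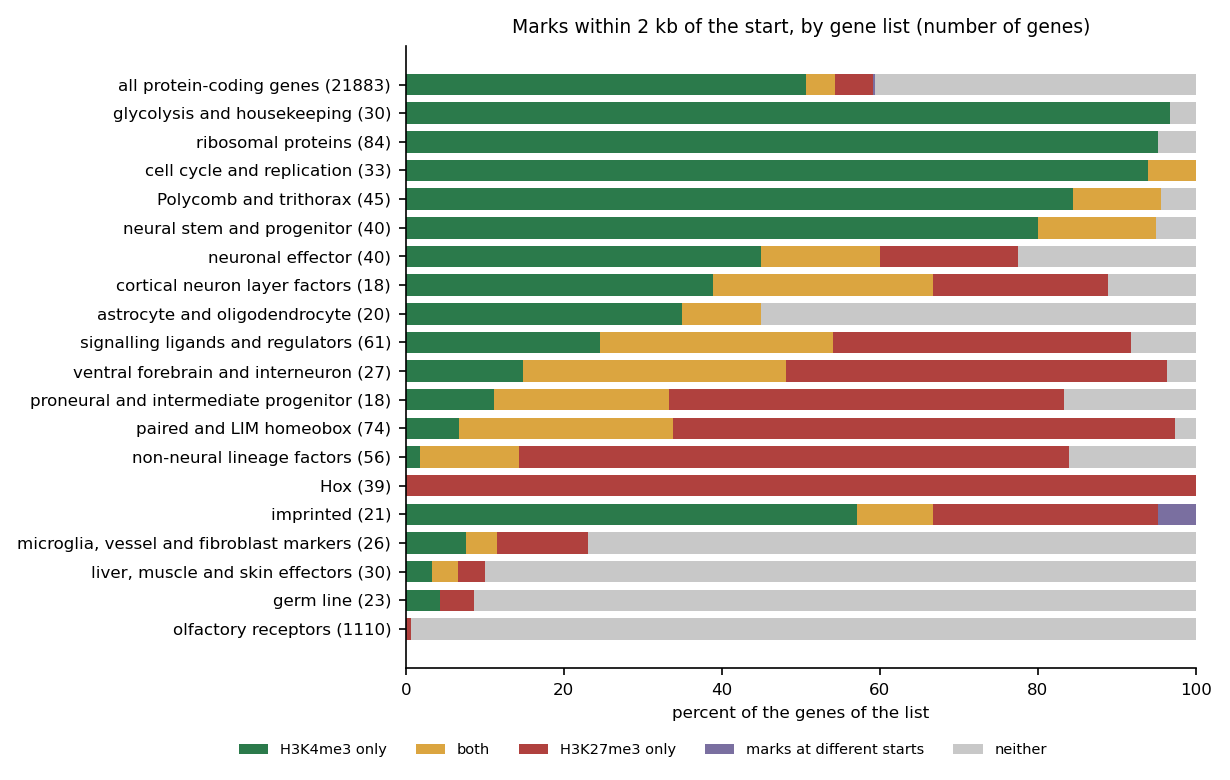
Percent of the genes of each list with H3K4me3 only (green), both marks at the same start (yellow), H3K27me3 only (red), marks at different starts (purple) and neither (grey), with the number of genes in brackets and all protein-coding genes on top. Housekeeping, cell cycle and progenitor lists are mostly green, Hox and non-neural lineage factors mostly red, and olfactory receptors and germ line genes mostly grey.

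Of 61 signalling genes, 18 had both marks, 23 H3K27me3 only, 15 H3K4me3 only and 5 neither. The count with both marks depended on weak peaks. At a −log10 q of at least 10 the 18 became 7, and with lists of equal length they became 2. Ligands were found in every state. Wnt1 lay in H3K27me3 of 21.3 kb with a fold of 89.7, Wnt3a in 9.95 kb with a fold of 69.4 and Ihh in 10.7 kb with a fold of 25.3, while Bmp5, Fgf1, Fgf7 and Lefty1 had neither mark. Shh, the ventral morphogen, had both, with H3K4me3 of 1.62 kb and a fold of 18 and H3K27me3 of 10.8 kb and a fold of 23.3. Wnt7b had both, H3K4me3 over 2.27 kb and H3K27me3 over 6.45 kb, while Wnt7a, which is active in the ventricular zone, had H3K4me3 only, of 2.95 kb. The receptor Ptch1 and the regulator Axin2, which respond to hedgehog and Wnt signals, had H3K4me3 only, of 4.26 kb with a fold of 36.5 and 4.05 kb with a fold of 17.6. Sfrp1, a Wnt antagonist, and Inhbb, an activin subunit, had both.

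Genes with both marks were ordered by the lower of their ranks, each taken by −log10 q within the list of that mark. The strongest were Scrt1, Pcgf1, Igf1r, Rsrc1, Phpt1, Grwd1, Ccsap, the neighbours Rgs9bp and Ankrd27, and E030030I06Rik. Scrt1, a neuronal repressor, had H3K4me3 of 3.39 kb with a fold of 27.9 and H3K27me3 of 7.25 kb with a fold of 46.8. Igf1r, the receptor of insulin-like growth factor 1, had 4.91 kb with a fold of 31.0 next to 11.7 kb with a fold of 24.2. At several of the others the H3K27me3 domain also reached the start of a neighbour with H3K27me3 only. These neighbours were Shox2 for Rsrc1, Ajm1 for Phpt1, Raet1e for E030030I06Rik and Tlx2 for Pcgf1. Such a shared domain occurred at 20 of the 813 genes with both marks (2.46%).

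The 10 strongest genes of each state with 1 mark were ranked by −log10 q. With H3K4me3 only they were Hjurp, a centromere chaperone, with 1.87 kb and a −log10 q of 219, the divergent pair Ssna1 and Anapc2, which share a peak of 2.47 kb with the highest fold of the list, 63.5, and Thoc3, Bag4, Lsm1, Armc6, Sugp2, Wdr45b and Cenpo. With H3K27me3 only they were led by Lbx1, a spinal cord and muscle factor, in 27.8 kb with a fold of 112, Gata4, Skor1 in 23.3 kb with a fold of 125, Bsx, a hypothalamic factor, in 33.1 kb with a fold of 117, Onecut1, Foxd4, Tlx3, Neurod2 with its neighbour Gm33099, and Prdm12.

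Among the widest H3K4me3 peaks at protein-coding starts were those of Nfib with 14.5 kb, Pou3f3 with 13.0 kb and Tnrc18 with 10.8 kb, and those of Irs2, the pair Srgap2 and Fam72a, Zfp516, Npas3, Skida1 and Sall3 with 8.76 to 7.35 kb. Nfib and Pou3f3 are transcription factors of the developing forebrain. A further 3 H3K4me3 peaks of at least 10 kb had no protein-coding start, and 2 of them held a gene of the brain miRNA miR-9. Beyond the 4 domains over the Hox clusters, the longest H3K27me3 domains lay over Hand2 with 50.6 kb, Gata4, Dlx5 and Dlx6, Tfap2a with 45.3 kb, Tcf21 with 44.1 kb and Hoxb13 with 43.5 kb.

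Hairpins of miRNAs were compared in the same way. The RefSeq table of miRNA sequences, which is not complete, holds 1005 hairpins on these chromosomes, and within 2 kb of the hairpin 157 (15.6%) had H3K4me3 only, 33 (3.28%) H3K27me3 only, 11 (1.09%) both and 804 (80.0%) neither. A hairpin is not a transcription start, and many lie inside a host gene. The mature miRNAs of the loci named next are printed with the seed, bases 2 to 8, in capitals, to show which of them share a seed (RefSeq, GRCm38.p6).
miR-9-5p: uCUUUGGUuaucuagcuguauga
miR-10a-5p: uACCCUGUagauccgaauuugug
miR-10b-5p: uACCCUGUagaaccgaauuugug
miR-196a-5p: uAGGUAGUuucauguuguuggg
miR-196b-5p: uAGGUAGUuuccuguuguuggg
miR-96-5p: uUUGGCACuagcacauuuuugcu
miR-182-5p: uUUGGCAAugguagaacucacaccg
miR-183-5p: uAUGGCACugguagaauucacu
miR-137-3p: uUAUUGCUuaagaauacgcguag
miR-9, abundant in neural progenitors, is made from 3 loci with the same mature sequence, and all 3 had H3K4me3 only. Mir9-1 lay in the widest H3K4me3 peak but 1, of 17.0 kb with a fold of 25.6 (chr3:88204867-88221824). Mir9-3 lay in a peak of 11.4 kb with a fold of 13.9. Mir9-2 lay in a peak of 3.95 kb with a fold of 25.6, and the widest H3K4me3 peak of all, 23.8 kb with a fold of 26.0 at the noncoding gene C130071C03Rik (chr13:83712925-83736681), ended 377 bp before it. miR-10a and miR-10b share the seed ACCCUGU and miR-196a and miR-196b share AGGUAGU, and all their loci, Mir10a, Mir10b, Mir196a-1, Mir196a-2 and Mir196b, lay inside the Hox domains of H3K27me3. Mir96 and Mir183, miRNAs of sensory organs, lay under H3K27me3 of 16.3 kb with a fold of 95.3, and their neighbour Mir182 had the same domain within 2 kb. Mir375, of endocrine cells, lay under 26.0 kb with a fold of 85.3. Mir137, which acts in neuronal maturation, had both marks as weak, short peaks of 0.434 kb and 0.411 kb.

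CpG content separated the genes with neither mark from the rest and, less sharply, the marked states from each other. Promoters of 300 bases ran from 250 before to 50 after the most upstream listed start, and peaks near that start alone set their state. They had a median of 22 CpG with H3K4me3 only, 23 with both marks, 15 with H3K27me3 only and 3 with neither. Over all 17491 promoters the median was 13. The ratio of observed to expected CpG had medians of 0.801, 0.761, 0.588 and 0.191, with quartiles of 0.652 and 0.933 for H3K4me3 only, 0.597 and 0.902 for both, 0.356 and 0.757 for H3K27me3 only and 0.0957 and 0.333 for neither. The G and C content of the states differed less, with medians of 62.0%, 65.3%, 61.0% and 47.3% in the same order. Genes with H3K27me3 only thus had nearly the G and C content of genes with H3K4me3 only and fewer CpG. Neurog2 and Eomes, with 10 CpG each in the 300 bases at the listed start, lay below the lower quartile of promoters with both marks, 15. For Neurog2 these bases lie inside the annotated gene span. Sox2, with 27, lay between the quartiles of promoters with H3K4me3 only, 16 and 30.

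**Figure D5:**
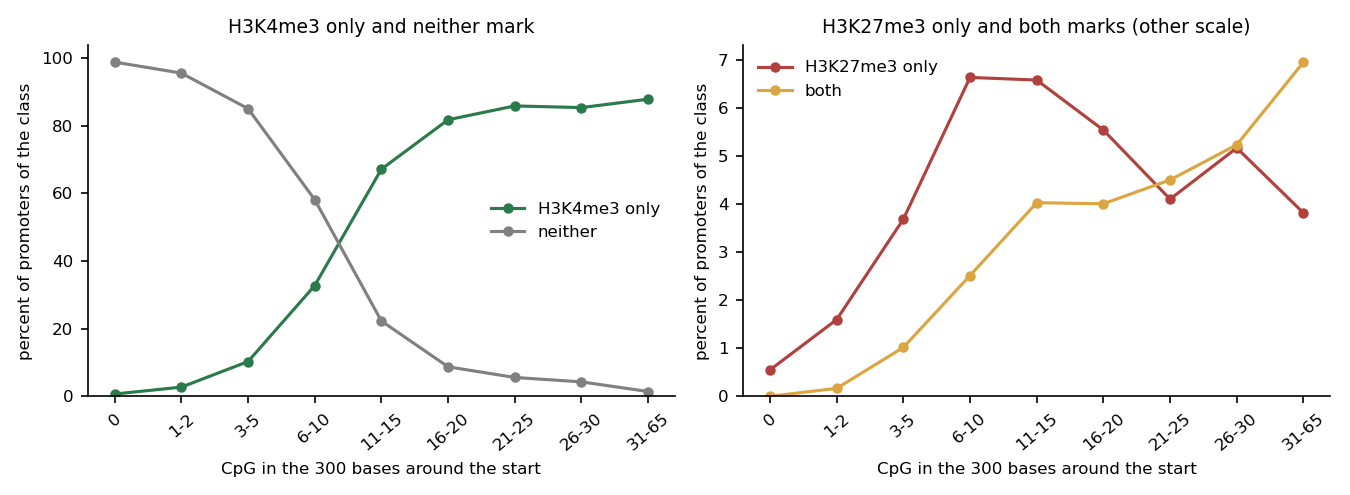
Percent of promoters in each state, by the number of CpG in the 300 bases around the start. The left panel gives H3K4me3 only and neither, the right panel, on another scale, H3K27me3 only and both marks. Promoters with neither mark fall from 98.8% without CpG to 1.40% at 31 to 65 CpG, H3K27me3 only peaks at 6 to 10 CpG and both marks rise to 6.96%.

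Across classes of CpG number, H3K4me3 only rose from 0.659% of the 911 promoters without CpG to 87.8% of the 2358 with 31 to 65 CpG. H3K27me3 only had its highest share, 6.64%, at 6 to 10 CpG, and was 3.82% at 31 to 65. Both marks rose from 0 of the 911 promoters without CpG, which allows a share of up to 0.329%, to 6.96%. The motif TATAAA, searched on either strand, lay in 13.3% of all promoters, in 22.9% with neither mark, 12.4% with H3K27me3 only, 8.47% with both and 6.0% with H3K4me3 only. The motif CCAAT, searched in the same way, lay in 39.2% of all promoters and in 32.9% to 39.9% of the promoters of the 4 states. A match to these letters is a description of the sequence and not a bound site.

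Several gene families and lists had neither mark at most or all of their members. Olfactory receptors had neither mark at 1103 of 1110 genes and vomeronasal receptors at 353 of 353, so these families made up 12.4% and 3.97% of all genes with neither. The 7 olfactory receptor genes with H3K27me3 had peaks of 0.432 to 1.97 kb. Of 38 taste receptor genes 37 had neither mark, of 71 defensin genes 70, of 53 keratin genes 49 and of 23 germ line genes 21. Spo11, a nuclease of meiosis, had a weak H3K4me3 peak of 0.743 kb with a fold of 4.88. The predicted genes named with Gm added 1182 genes, 13.3% of the state. Of the 57 clustered protocadherins, which have no listed start here, 53 had neither mark at the annotated ends. Of these, 30 had an H3K4me3 peak and 12 an H3K27me3 peak somewhere in the annotated span, and since these spans overlap, a peak cannot be assigned to 1 of the genes.

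Markers of other cells that a forebrain culture could hold had few peaks. Of 26 markers of microglia, vessels and fibroblasts, 20 had neither mark, among them Aif1, Cx3cr1, Csf1r, Pecam1, Cdh5 and Col1a1. Kdr, a vessel receptor, had H3K4me3 only, of 1.43 kb with a fold of 16.2, and Cspg4, which oligodendrocyte precursors share with pericytes, 0.991 kb with a fold of 10.6. Flt1, Pdgfrb and C1qa had H3K27me3 only and Pdgfra both marks. The H3K4me3 peaks of the list, at only 3 genes, had a median of 1.43 kb. The median was 1.72 kb at all genes with H3K4me3 only and 3.84 kb at the progenitor genes.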

How the data were processed

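The authors deposited 1 peak list per library. The submitters' processing notes name MACS2 2.2.7.1, Bowtie2 2.4.1, Picard 2.22.0 and SAMtools 1.10, with GRCm38 as the build. Not given in the sources used here are the settings, the treatment of duplicates and the control behind the background. Deposited pileups are a signal at the summit, multiplied by a factor of the library. Significance is −log10 of p and q, and fold enrichment is a ratio of summit signal to local background, per the file headers. Each pileup equalled a whole number of steps (100% within 0.01), and the steps, 0.260 and 0.287, with background floors of 1.49 per kb for both, put the H3K4me3 library at 1.10 times the depth of the other, if both were scaled to the same background, which was not tested. Fragment totals are not given, and a place without a peak can lie just under the caller's threshold.

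Genes came from a RefSeq table of GRCm38.p6, whose chromosomes 1 to 19, X and Y hold 21883 protein-coding genes. Starts and strands were listed for 17491 of them. The other 4392, among them all 510 on chromosome 18, were judged by both annotated ends, which adds 3′ ends. A gene had a mark when a peak lay within 2 kb of a start, and both marks needed the same start. Shares carry 95% limits by the exact Clopper-Pearson method, which cover counting error alone. The floor for a count of 0 is 3 counts. The code (Python 3.11.15, pandas 2.3.3, numpy 2.4.6, scipy 1.17.1, matplotlib 3.10.9) was tested on simulated data, and bedtools 2.31.1 gave the same number of overlapping peaks.

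The comparison, the 33 gene lists and the alternatives were chosen with earlier results of these data known. The rule named a fixed set of genes (among them Sox2, Nes, Pax6, Neurog2, Eomes, Dlx2, Gfap, Olig2, Actb, Gapdh, Hoxa9, Gata4, Shh, Gad1), the 10 strongest by −log10 q per state, the 10 starts with the longest peaks and up to 4 members per list and state. For genes with both marks, strength was the lower of the ranks by −log10 q within the list of each mark. Further genes were named after their values were seen. A few genes within this rule are not reported here.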

Additional observations from a re-analysis of the deposited data

How the results depend on the processing

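Limits to both lists changed the overlap of the marks most. Genes with both marks fell from 813 to 500 at a −log10 q of at least 5, to 245 at 10 and to 162 with lists of equal length (7643 peaks each), and H3K4me3 peaks on H3K27me3 fell from 910 to 548, 257 and 131. With lists of equal length, which drop the weaker H3K4me3 peaks, genes with H3K27me3 only became 1725. H3K4me3 peaks wholly on H3K27me3 numbered 505. H3K4me3 peaks at a start were 83.5% with a window of 1 kb, 89.1% with 5 kb and 81.6% with both annotated ends of every gene, and H3K27me3 peaks 24.3%, 37.3% and 29.8%. Away from neighbours within 5 kb, median observed-to-expected CpG was 0.790 for H3K4me3 only and 0.185 for neither. The other counts of genes and peaks stayed within 1.5 times, including those with genes that have a listed start only (9051, 757, 596 and 7067) and with no peak in the gene (8313), which were added after the data were seen. Of the counts over 15 pairs of list and state, 117 stayed within 1.5 times and 3 moved further, all of genes with both marks. With 1 library per mark, nothing here measures the spread between cultures. No paired analysis was possible because no result comes from a test.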

Other observations

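The X chromosome had more H3K27me3 peaks than H3K4me3 peaks, 747 against 441, while every one of chromosomes 1 to 19 had fewer. It held 9.77% of all H3K27me3 peaks and 3.34% of all H3K4me3 peaks. Few of its H3K27me3 peaks lay at a protein-coding start, 11.2% (95% interval 9.07 to 13.7) against 30.1% (29.0 to 31.2) on chromosomes 1 to 19, and 43.6% against 27.5% lay inside a gene away from its start. They were short, with a median of 805 bp against 1141 bp, and 82.9% against 92.7% were called again after crotonate. Xist, the noncoding RNA that silences an X chromosome in female cells, had 2 H3K4me3 peaks, of 1913 bp with a fold of 8.76 and 656 bp with a fold of 5.42. The Y chromosome had no H3K27me3 peak and 3 weak H3K4me3 peaks, at Eif2s3y, Uty and Ddx3y, with folds of 4.29 to 4.66. The labels do not give the sex of the embryos.

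Genes of lncRNAs had marks less often than protein-coding genes, and tRNA genes had H3K4me3 about as often. Of 12727 lncRNA genes, 14.1% had H3K4me3 only, 4.29% H3K27me3 only and 1.45% both, and 80.1% neither. Of 408 tRNA genes, 54.2% had H3K4me3 only, and of 9944 pseudogenes 1.59%. The share with H3K27me3 only thus varied less between lncRNA and protein-coding genes than the share with H3K4me3 only.

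Imprinted genes were all marked. Of 21, 12 had H3K4me3 only, 6 H3K27me3 only, 2 both, and Gnas the marks at different starts. Igf2 lay under H3K27me3 of 14.0 kb with a fold of 29.5 and Ascl2 under 7.08 kb with a fold of 27.9, while Peg3 and Snrpn had H3K4me3 only, of 3.46 and 1.79 kb. Alleles were not told apart in these libraries.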
